A study of Mus musculus with 6 samples.

Results

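AgRP neurons of the arcuate nucleus (ARC) in the hypothalamus were followed through 10 genes of their peptides, receptors and factors, namely *Agrp*, *Npy*, *Ghsr*, *Lepr*, *Acvr1c*, *Otp*, *Asb4*, *Bsx*, *Corin* and *Npy2r*. The genes were chosen by symbol for what is known of them in these neurons, with earlier results of these data known. All 10 were found among the 21461 genes with deposited read counts. RNA was sequenced from ARC tissue of male C57BL/6 mice, 10 weeks old, that had been injected i.p. 24 h before with vehicle, with dexamethasone (Dex, a synthetic agonist of the glucocorticoid receptor, GR) at 10 mg/kg, or with Dex at 10 mg/kg and Zj7 at 50 mg/kg (Dex+Zj7). Zj7 is a plant triterpenoid that the study tested as a selective modulator of GR, and no group received Zj7 without Dex. The sample labels name the tissue only as brain, print 10 mg/kg alone for the combined treatment, and describe the vehicle samples, but neither treated group, as fed. Hunger acts on these neurons, and the part of any difference in feeding was not tested. Each of the 3 groups had 2 libraries, and no source used here says whether these came from separate mice, and a p-value then covers the spread of these samples alone, which may be technical.

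AgRP neurons release AgRP, which blocks melanocortin receptors, NPY, which acts on Y receptors, and the inhibitory transmitter GABA. They promote feeding, are active in hunger, are excited by ghrelin and are inhibited by leptin, and glucocorticoids are known to raise *Agrp* and *Npy* expression. The comparison of Dex with vehicle asked how these genes stood after GR activation, and that of Dex+Zj7 with Dex how they stood when Zj7 was added. None of the 10 genes but *Agrp* is close to specific for these neurons, since *Npy* is used by many other neurons, *Lepr* and *Ghsr* by several hypothalamic cell types and *Otp* by other hypothalamic nuclei. In bulk tissue, fewer cells of a type and less RNA per cell cannot be told apart.

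The promoter windows are shown for 3 of the raised genes as the stretch where a shared motif would be looked for. RefSeq (GRCm38.p6, the assembly of mm10) gave 12 windows for 9 of the 10 genes, and the 250 bases before each start were searched. The gene without a window was *Agrp*, so its promoter was not searched and the counts below do not cover it. The windows of *Npy* (chr6:49822460-49822709, plus strand), *Ghsr* (chr3:27371101-27371350, plus strand) and 1 of the 2 of *Lepr* (chr4:101717157-101717406, plus strand) read as follows, with capitals marking TAAT on either strand, a core letter group of homeodomain factors such as BSX and OTP.
Npy: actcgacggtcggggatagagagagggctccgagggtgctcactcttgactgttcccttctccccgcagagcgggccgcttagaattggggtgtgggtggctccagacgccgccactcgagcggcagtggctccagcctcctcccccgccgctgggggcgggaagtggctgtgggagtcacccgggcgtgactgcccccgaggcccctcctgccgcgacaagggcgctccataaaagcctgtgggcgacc
Ghsr: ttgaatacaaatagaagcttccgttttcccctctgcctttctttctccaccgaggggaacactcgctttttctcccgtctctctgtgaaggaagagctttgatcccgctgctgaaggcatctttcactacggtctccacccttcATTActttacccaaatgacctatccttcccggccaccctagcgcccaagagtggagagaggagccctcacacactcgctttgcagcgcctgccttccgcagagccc
Lepr: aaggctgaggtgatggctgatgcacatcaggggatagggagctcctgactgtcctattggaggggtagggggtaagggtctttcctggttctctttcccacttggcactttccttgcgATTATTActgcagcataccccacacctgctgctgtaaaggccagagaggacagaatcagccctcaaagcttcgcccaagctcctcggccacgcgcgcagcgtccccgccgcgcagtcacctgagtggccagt
The window of *Ghsr* holds 1 match, that of *Lepr* holds 2 that share a base, and that of *Npy* has none. Searched on both strands, TAAT was in 8 of the 12 windows (those of *Asb4*, *Corin*, *Ghsr*, *Lepr*, *Npy2r* and *Otp*) and in 54.9% of all 32851 windows. The glucocorticoid response element letters TGTTCT were in 0 of the 12 windows and in 16.1% of all windows, and the spaced core ACANNNTGT in 0 and in 5.84%. The FoxO motif GTAAACA was in 0 of the 12 and in 3.17% of all, and the TATA box TATAAA in 0 and in 12.4%. A match or its absence in so short a window is a description of these letters only. The GC content of the windows ran from 40.8% in a window of *Asb4* to 79.6% in a window of *Acvr1c*, around a median of 52.4% over all windows.

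The libraries held 50704789 to 61122938 counts, and CPM here means counts brought to a common library total with TMM factors. Vehicle replicate 2 stood apart in *Pomc* and *Slc6a3*, genes of other ARC neurons. *Pomc*, the precursor gene of the POMC neurons, was at 130.7 CPM there and at 21.2 to 29.6 CPM in the other 5 libraries, and the dopamine transporter gene *Slc6a3* was at 21.2 CPM against 5.30 to 6.57. The other genes listed for ARC and POMC neurons differed less between the vehicle libraries. In Vehicle replicates 1 and 2, *Cartpt* was at 51.95 and 54.35 CPM, *Isl1* at 22.1 and 20.3 CPM and *Th* at 31.8 and 38.4 CPM. Of the 10 AgRP neuron genes, 9 were lower in Vehicle replicate 2 than in Vehicle replicate 1, by a median log2 difference of −0.28, and only *Acvr1c* was not. In the Dex group 6 were higher in replicate 1 and 4 in replicate 2, and in the Dex+Zj7 group 5 and 5. The same counts were not taken over all genes, so whether the vehicle gap is particular to the 10 is not known. Fold changes against vehicle are also given without Vehicle replicate 2. Genes of the neighbouring lateral hypothalamus were abundant, with *Pmch* at 754 to 947 FPKM and *Hcrt* at 199 to 324 FPKM, while 4 measured genes of cortex and hippocampus summed to 6.30 to 8.61 CPM. The 5 genes listed for the ventromedial nucleus summed to 163.5 to 175.2 CPM with vehicle, 181.4 to 201.6 CPM with Dex and 154.2 to 161.9 CPM with Dex+Zj7. By edgeR's quasi-likelihood test 2 of the 5 were called higher with Dex and 0 lower. Between Dex+Zj7 and Dex 0 were called, with 3 at an unadjusted p under 0.05 and a median of −0.22. Their part in the values of the AgRP neuron genes was not tested. Of the 8 pan-neuronal genes, 0 were called in any comparison by edgeR's quasi-likelihood test (1 at an unadjusted p under 0.05 with Dex, and 1 called by DESeq2), and their sum was 5070 to 5142 CPM with vehicle, 5268 to 5341 CPM with Dex and 5221 to 5348 CPM with Dex+Zj7. All 5 microglia genes, 5 of 6 endothelial genes and 5 of 6 oligodendrocyte genes fell with Dex, and the part of these shifts in the values of the AgRP neuron genes was not tested.

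The levels of the 10 genes can be compared with each other only per length, for which the deposited FPKM values (fragments scaled by transcript length and library size) were used. With vehicle *Npy* stood highest at 47.5 ± 10.8 FPKM (SD, n = 2). *Otp* followed at 12.8 ± 0.737 FPKM, *Asb4* at 11.3 ± 1.28 FPKM, *Bsx* at 9.50 ± 1.28 FPKM and *Agrp* at 7.35 ± 0.249 FPKM (SD, n = 2 each). Below these came *Npy2r* at 6.23 ± 0.858 FPKM, *Ghsr* at 2.18 ± 0.553 FPKM, *Lepr* at 2.13 ± 0.453 FPKM and *Acvr1c* at 1.495 ± 0.0106 FPKM (SD, n = 2 each), with *Corin* lowest at 0.299 ± 0.0923 FPKM. Of the neighbours in this order, the libraries overlapped between *Asb4* and *Bsx* and between *Ghsr* and *Lepr*, and did not overlap between the others, with *Otp* only just above *Asb4*. *Agrp* moved from rank 5 with vehicle to rank 2 with Dex (30.8 ± 1.16 FPKM) and stayed there with Dex+Zj7 (17.2 ± 1.92 FPKM), behind *Npy* at 104 and 67.3 FPKM.

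**Figure D1:**
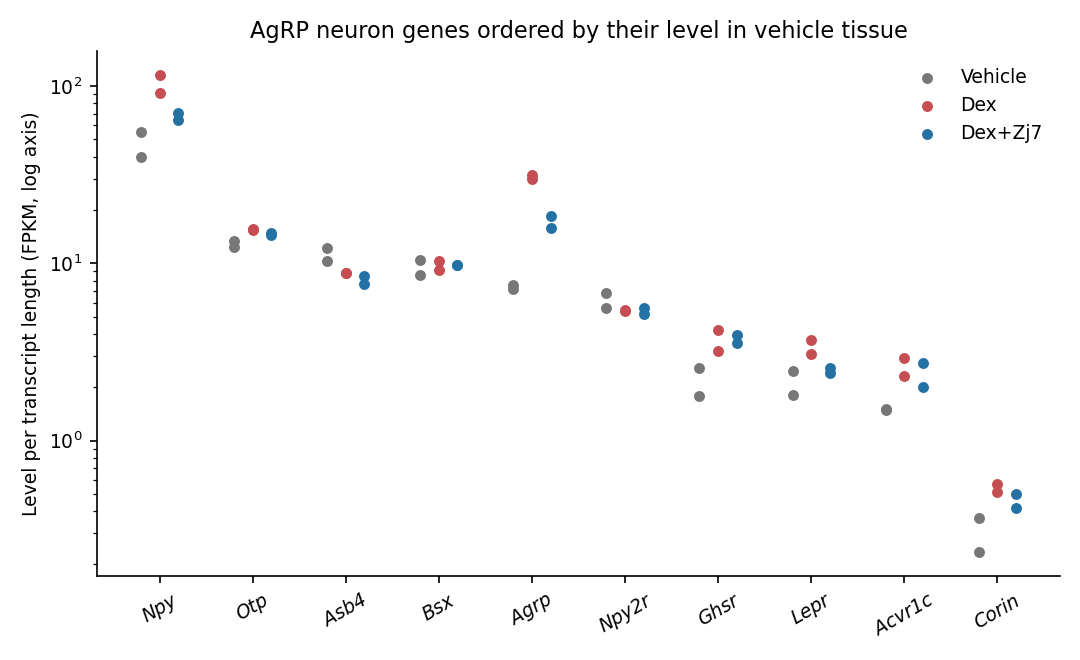
FPKM of the 10 AgRP neuron genes on a log axis, ordered by their vehicle mean, with 1 point for each of the 2 libraries of a group. *Npy* is highest in every group, and *Agrp* passes *Otp*, *Asb4* and *Bsx* with Dex (30.8 FPKM) and with Dex+Zj7 (17.2 FPKM).

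Both peptide genes were higher with Dex than with vehicle, and with Zj7 added they lay between the levels of the other groups. *Agrp* (chromosome 8, 105566695 to 105579845, minus strand), which encodes the melanocortin antagonist, was at 6.30 and 5.19 CPM with vehicle, at 23.2 and 21.99 CPM with Dex and at 13.5 and 15.8 CPM with Dex+Zj7. The 3 groups did not overlap, and the smallest gap between groups was wider than any gap within a group. The log2 fold change of *Agrp* with Dex was 1.97 (SE 0.127, 95% interval 1.69 to 2.26, adjusted p = 0.000291 by quasi-likelihood in edgeR), a linear fold of 3.93. Only 0.0326% of the genes tested had a smaller p in that comparison. Without Vehicle replicate 2 the value was 1.85 (adjusted p = 0.00199).
*Npy* (chromosome 6, 49822710 to 49829507, plus strand), the gene of neuropeptide Y, was at 33.6 and 24.4 CPM with vehicle, at 71.7 and 56.8 CPM with Dex and at 39.7 and 43.8 CPM with Dex+Zj7. Its groups did not overlap either, though the libraries of the vehicle and Dex groups lay farther apart from each other than those of *Agrp*. *Npy* rose by 1.15 with Dex (SE 0.154, 95% interval 0.80 to 1.498, adjusted p = 0.00441), a linear fold of 2.21. Without Vehicle replicate 2 the value was 0.94 (adjusted p = 0.0174).
The FPKM of *Agrp* was 13.6% and 18% of that of *Npy* with vehicle, 27.2% and 32.8% with Dex and 24.8% and 26.3% with Dex+Zj7. By counts, both genes had the same log2 fold change of −0.62 between Dex+Zj7 and Dex. The FPKM of *Agrp* was 31.6 at 23.2 CPM in Dex replicate 1 and 15.9 at 13.5 CPM in Dex+Zj7 replicate 1. Its FPKM scaling thus differed between libraries, and the lower ratio with Dex+Zj7 is not read as a difference between the genes. Set against the counts of *Otp*, a factor of the same neurons, *Agrp* had 0.151 and 0.136 counts per *Otp* count with vehicle, 0.480 and 0.447 with Dex and 0.295 and 0.340 with Dex+Zj7. For *Npy* this ratio was 0.804 and 0.642 with vehicle, 1.48 and 1.16 with Dex and 0.866 and 0.941 with Dex+Zj7. The ratios to *Otp* kept the order of the groups for both peptides. A long non-coding RNA gene, *Gm38250*, spans *Agrp* on the opposite strand and was counted at 4.53 and 5.15 CPM with vehicle, 2.59 and 3.91 CPM with Dex and 3.53 and 3.38 CPM with Dex+Zj7. It was highest in the vehicle libraries, where *Agrp* was lowest. The libraries were prepared by a stranded protocol, but the sources used here do not say whether the counting used the strand. Reads of this pair may thus have been assigned to either gene.

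**Figure D2:**
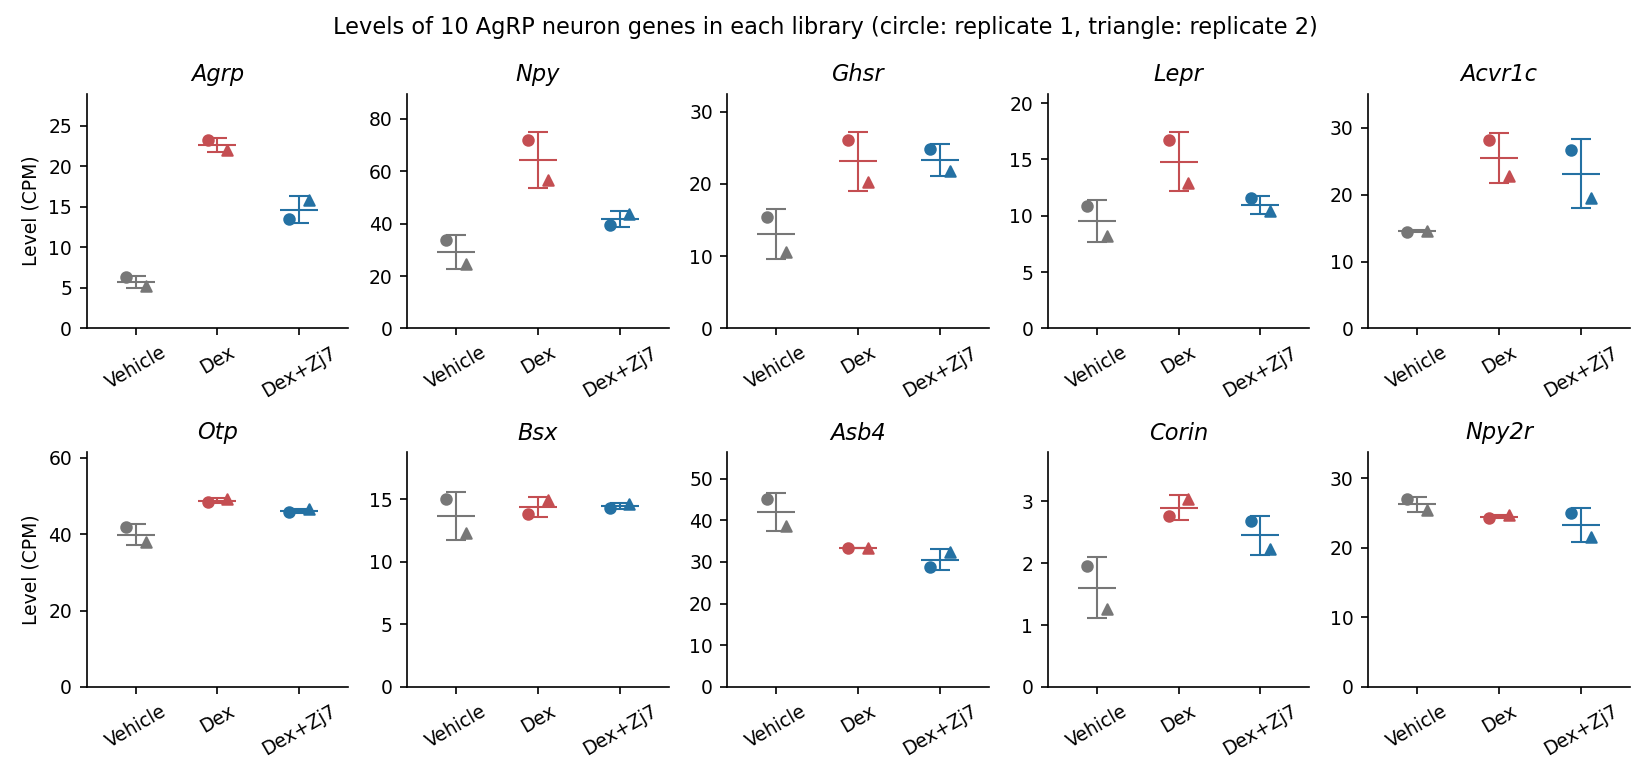
CPM of the 10 genes in each library (circle for replicate 1, triangle for replicate 2), with the group mean as a horizontal line and the SD as error bars, each axis starting at 0. *Agrp* separates the 3 groups, at 5.19 to 6.30 CPM with vehicle, 21.99 to 23.2 CPM with Dex and 13.5 to 15.8 CPM with Dex+Zj7, while *Bsx* overlaps in all of them.

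Of 4 receptors, those for ghrelin, leptin and growth factors were also higher with Dex, and the Y2 receptor was not called. *Ghsr* (chromosome 3, 27371351 to 27379235, plus strand), the ghrelin receptor gene, was at 15.5 and 10.6 CPM with vehicle, at 26 and 20.2 CPM with Dex and at 24.8 and 21.8 CPM with Dex+Zj7. Both treated groups lay above vehicle and overlapped each other. *Ghsr* rose by 0.82 with Dex (SE 0.180, adjusted p = 0.0239 by quasi-likelihood in edgeR), but did not pass without Vehicle replicate 2 (0.58, adjusted p = 0.111) or without Dex replicate 1 (0.63, adjusted p = 0.0937).
*Lepr* (chromosome 4, 101717137 to 101815352, plus strand), the gene of the leptin receptor, was at 10.9 and 8.22 CPM with vehicle, at 16.7 and 12.9 CPM with Dex and at 11.5 and 10.4 CPM with Dex+Zj7. The Dex libraries were above the other 4, and vehicle and Dex+Zj7 overlapped. *Lepr* rose by 0.63 with Dex (SE 0.165, adjusted p = 0.0432), a call lost in 6 of the 14 alternative fits, among them those without Vehicle replicate 2 (0.45, adjusted p = 0.233) and without Dex replicate 1 (0.44, adjusted p = 0.175).
*Acvr1c* (chromosome 2, 58267453 to 58357896, minus strand), which encodes ALK7, a type I receptor of the TGF-β family for activins, nodal and related growth factors, was at 14.4 and 14.6 CPM with vehicle, at 28.1 and 22.9 CPM with Dex and at 26.8 and 19.5 CPM with Dex+Zj7. Its vehicle libraries were nearly equal, and the treated groups overlapped each other above them. *Acvr1c* rose by 0.81 with Dex (SE 0.154, adjusted p = 0.0144), with 0.82 without Vehicle replicate 2 (adjusted p = 0.076), 0.80 without Vehicle replicate 1 (adjusted p = 0.0672) and 0.65 without Dex replicate 1 (adjusted p = 0.0585).
*Npy2r* (chromosome 3, 82538383 to 82548989, minus strand), the gene of the Y2 receptor through which NPY restrains its own release, was at 27.0 and 25.5 CPM with vehicle, 24.3 and 24.7 CPM with Dex and 25.1 and 21.6 CPM with Dex+Zj7. Its log2 fold change for Dex was −0.10 (SE 0.0887, 95% interval −0.30 to 0.10, adjusted p = 0.516), an interval that ends below the lower bounds for *Ghsr* (0.41), *Lepr* (0.25) and *Acvr1c* (0.46). Without Vehicle replicate 2 it was −0.14.

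Of the transcription factors that mark these neurons, *Otp* was slightly higher with Dex and *Bsx* was not called. *Otp* (chromosome 13, 94875636 to 94885125, plus strand), a homeodomain factor used in the development of AgRP neurons and of the paraventricular nucleus, was at 41.8 and 38.0 CPM with vehicle, at 48.3 and 49.2 CPM with Dex and at 45.8 and 46.5 CPM with Dex+Zj7. The 3 groups did not overlap, with Dex highest. *Otp* rose by 0.29 with Dex (SE 0.0676, adjusted p = 0.0294 by quasi-likelihood in edgeR), and the call was lost in 6 of 14 alternatives, all but 1 of them with a library left out (without Vehicle replicate 2, 0.23, adjusted p = 0.233). The 6 genes listed for the paraventricular nucleus and other OTP neurons summed to 182 to 224 CPM with vehicle, 238 to 293 CPM with Dex and 267 to 293 CPM with Dex+Zj7, and 1 of the 6 was called higher with Dex; their part in the value of *Otp* was not tested.
*Bsx* (chromosome 9, 40874127 to 40878962, plus strand), a homeodomain factor needed for normal *Agrp* and *Npy* expression, was at 15.03 and 12.3 CPM with vehicle, 13.8 and 14.98 CPM with Dex and 14.3 and 14.6 CPM with Dex+Zj7. All groups overlapped. The log2 fold change of *Bsx* with Dex was 0.07 (95% interval −0.19 to 0.33, adjusted p = 0.734), and it turned to −0.06 without Vehicle replicate 2.

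The other 2 genes were not called with Dex and had values of opposite sign. *Asb4* (chromosome 6, 5383386 to 5433022, plus strand), which encodes an ankyrin repeat and SOCS box protein present in AgRP and POMC neurons, was at 45.1 and 38.7 CPM with vehicle, at 33.4 and 33.4 CPM with Dex and at 28.8 and 32.3 CPM with Dex+Zj7. The 3 groups did not overlap, with vehicle highest. The value with Dex was −0.33 (SE 0.091, adjusted p = 0.0523), just above the threshold, and 5 of the 14 alternatives called it lower. It was −0.21 without Vehicle replicate 1 (adjusted p = 0.288) and −0.43 without Vehicle replicate 2 (adjusted p = 0.0725).
*Corin* (chromosome 5, 72299948 to 72504540, minus strand) encodes a membrane protease that activates atrial natriuretic peptide in the heart. It was the scarcest of the 10, at 1.96 and 1.26 CPM with vehicle, 2.76 and 3.04 CPM with Dex and 2.68 and 2.23 CPM with Dex+Zj7, which are 68 to 167 counts a library. Both treated groups were above vehicle. *Corin* was at 0.85 with Dex (SE 0.25, 95% interval 0.28 to 1.42, adjusted p = 0.0622), and 5 alternatives called it higher (adjusted p = 0.0086 with edgeR's exact test, 0.0256 with DESeq2). The vehicle library left out moved it from 0.57 (without replicate 2, adjusted p = 0.325) to 1.21 (without replicate 1, adjusted p = 0.0617).

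Across the 10 genes, 6 were called higher with Dex than with vehicle (*Agrp*, *Npy*, *Ghsr*, *Lepr*, *Acvr1c* and *Otp*), 0 lower and 4 neither, where 11.5% of all genes were called, 5.03% higher and 6.45% lower. With *Asb4* and *Corin*, 8 of the 10 had an unadjusted p under 0.05, as had 27.8% of all genes. The median log2 fold change was 0.72 for the 10 genes and 0.00 for all genes. In 7 of the 10 both Dex libraries lay above both vehicle libraries, which holds for 27.4% of all genes. In 2 (*Asb4* and *Npy2r*) both lay below, as in 28.5%. The 10 genes were chosen with earlier results of these data known, and the study had itself named *Agrp* and *Npy* from these data. Their shares beside those of all genes are thus a description and not a test. Left without Vehicle replicate 2, 2 of the 10 were called (*Agrp* and *Npy*) and 183 genes of all were called higher in place of 1080. Without Dex replicate 1, 2 of the 10 were called as well.

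With Zj7 added to Dex, the peptide genes and *Lepr* had the lowest values relative to Dex alone, and none of the 10 genes passed the adjusted test. *Agrp* was at −0.62 relative to Dex (SE 0.118, 95% interval −0.89 to −0.35, unadjusted p = 0.00059, adjusted p = 0.403 by quasi-likelihood in edgeR), lower in both libraries, with a linear ratio of 0.649. *Npy* was at −0.62 (SE 0.151, 95% interval −0.97 to −0.28, unadjusted p = 0.00288, adjusted p = 0.643), also lower in both libraries. *Lepr* was at −0.43 (SE 0.164, 95% interval −0.81 to −0.06, unadjusted p = 0.0281, adjusted p = 0.925). For *Agrp* 0.14% of all genes had a smaller p, and for *Npy* 0.443%. The 6 endothelial genes had values above 0, with a sum of 52.4 to 58.0 CPM with Dex and 84.3 to 114.3 CPM with Dex+Zj7 and a median of 0.84. All 6 had an unadjusted p under 0.05, 0 were called by quasi-likelihood or limma-voom and 5 by DESeq2 and by the exact test, and their part in the values of the AgRP neuron genes was not tested. The 6 tanycyte genes, from cells that line the ventricle beside the ARC, had a median of −0.47. Their sum was 78.9 to 109.1 CPM with Dex and 61.8 to 68.6 CPM with Dex+Zj7. Of these, 5 had an unadjusted p under 0.05, with 0 called by quasi-likelihood or limma-voom and 1 by DESeq2 and by the exact test. Their part in the values of the AgRP neuron genes was not tested either.
Over the whole table edgeR's quasi-likelihood test called 1 gene, 0.00466% of those tested, and 0 of the 10, with 3 of the 10 and 5.24% of all genes at an unadjusted p under 0.05. DESeq2 called *Agrp* lower (adjusted p = 0.00232) and 0.0839% of all genes lower. With edgeR's exact test *Agrp* and *Npy* were lower (adjusted p = 0.00119 and 0.0259), as were 0.158% of all genes. By limma-voom 0 of the 10 were called. By the rule of an unadjusted p under 0.05 and a linear fold of at least 1.5, *Agrp* and *Npy* were lower, and 1.33% of all genes were. With a library left out the value ran from −0.75 to −0.51 for *Agrp*, from −0.78 to −0.45 for *Npy* and from −0.61 to −0.24 for *Lepr*, so that all 3 stayed below 0.
The other 7 genes lay closer to 0. *Ghsr* was at 0.01 (95% interval −0.38 to 0.41), *Acvr1c* at −0.14 (−0.48 to 0.20) and *Corin* at −0.24 (−0.79 to 0.31), intervals that include both no difference and one of the size seen for *Lepr*, except that the interval of *Ghsr* ends above it. *Otp* was at −0.08 (−0.23 to 0.07), *Asb4* at −0.13 (−0.34 to 0.08), *Bsx* at 0.01 (−0.25 to 0.27) and *Npy2r* at −0.07 (−0.27 to 0.13), and none of these 4 intervals reaches the value of *Agrp*. In 6 of the 10 genes both Dex+Zj7 libraries lay below both Dex libraries, as in 14.9% of all genes, and in 0 both lay above, against 16.4% of all genes. The median was −0.13 over the 10 genes and 0.00 over all genes.

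**Figure D3:**
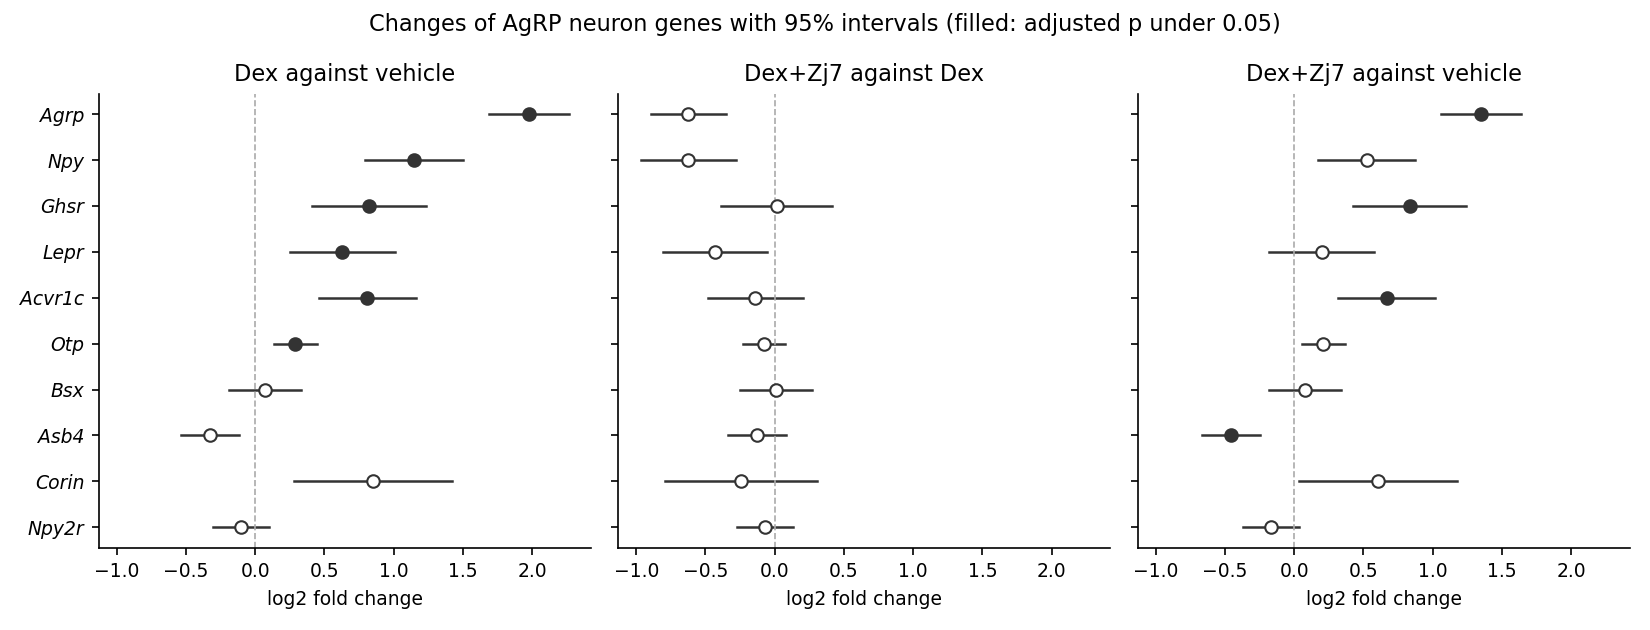
Log2 fold changes of the 10 genes with 95% intervals in the 3 comparisons, filled where the adjusted p was under 0.05. *Agrp* and *Npy* are highest with Dex (1.97 and 1.15) and lowest between Dex+Zj7 and Dex (−0.62 each), where no point is filled.

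Against vehicle, *Agrp*, *Ghsr* and *Acvr1c* were higher and *Asb4* was lower with Dex+Zj7. This comparison shares its vehicle libraries with that of Dex, so the 2 are set side by side and not counted as separate evidence. *Agrp* was higher than vehicle by 1.35 (SE 0.127, 95% interval 1.06 to 1.64, adjusted p = 0.00137 by quasi-likelihood in edgeR), a linear fold of 2.55 where Dex alone gave 3.93, and the call held in all 14 alternatives (1.21 to 1.49, the lowest without Vehicle replicate 2). *Ghsr* was at 0.84 (adjusted p = 0.0298) where Dex alone gave 0.82, and *Acvr1c* at 0.67 (adjusted p = 0.037) where Dex alone gave 0.81. Without Vehicle replicate 2 both calls were lost (0.59 and 0.68, adjusted p = 0.14 and 0.158). *Asb4* fell by 0.46 (SE 0.091, adjusted p = 0.0244), and that call did not hold without Vehicle replicate 1 (−0.35, adjusted p = 0.135) or without either Dex+Zj7 library, while it held without Vehicle replicate 2 (−0.57, adjusted p = 0.0383).
*Npy* was at 0.52 relative to vehicle (95% interval 0.17 to 0.87, adjusted p = 0.0767) and did not pass, though 7 of 14 alternatives called it, and its value ran from 0.31 without Vehicle replicate 2 to 0.76 without Vehicle replicate 1. *Lepr* was at 0.20 (−0.18 to 0.58, adjusted p = 0.514) and *Otp* at 0.21 (0.06 to 0.36, adjusted p = 0.0964). *Corin* was at 0.61 (adjusted p = 0.175), *Bsx* at 0.08 and *Npy2r* at −0.17 (adjusted p = 0.276). Leaving out Vehicle replicate 2 gave 0.0053 for *Lepr*, 0.14 for *Otp*, 0.32 for *Corin*, −0.06 for *Bsx* and −0.22 for *Npy2r*, and leaving out Vehicle replicate 1 gave 0.41, 0.27, 0.96, 0.22 and −0.14, none of them called. In all, 3 of the 10 were called higher and 1 lower, where 7.38% of all genes were called, 3.4% higher and 3.97% lower. By the unadjusted p and the linear fold of 1.5, 0 of the 10 were lower than vehicle, where 6.05% of all genes were. The tanycyte genes summed to 61.8 to 68.6 CPM with Dex+Zj7 and to 78.9 to 109 CPM in the other 4 libraries. By quasi-likelihood 2 of the 6 were called lower than vehicle and 0 higher, and not all of them had values below 0. The part of this in the values of the AgRP neuron genes was not tested.

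**Figure D4:**
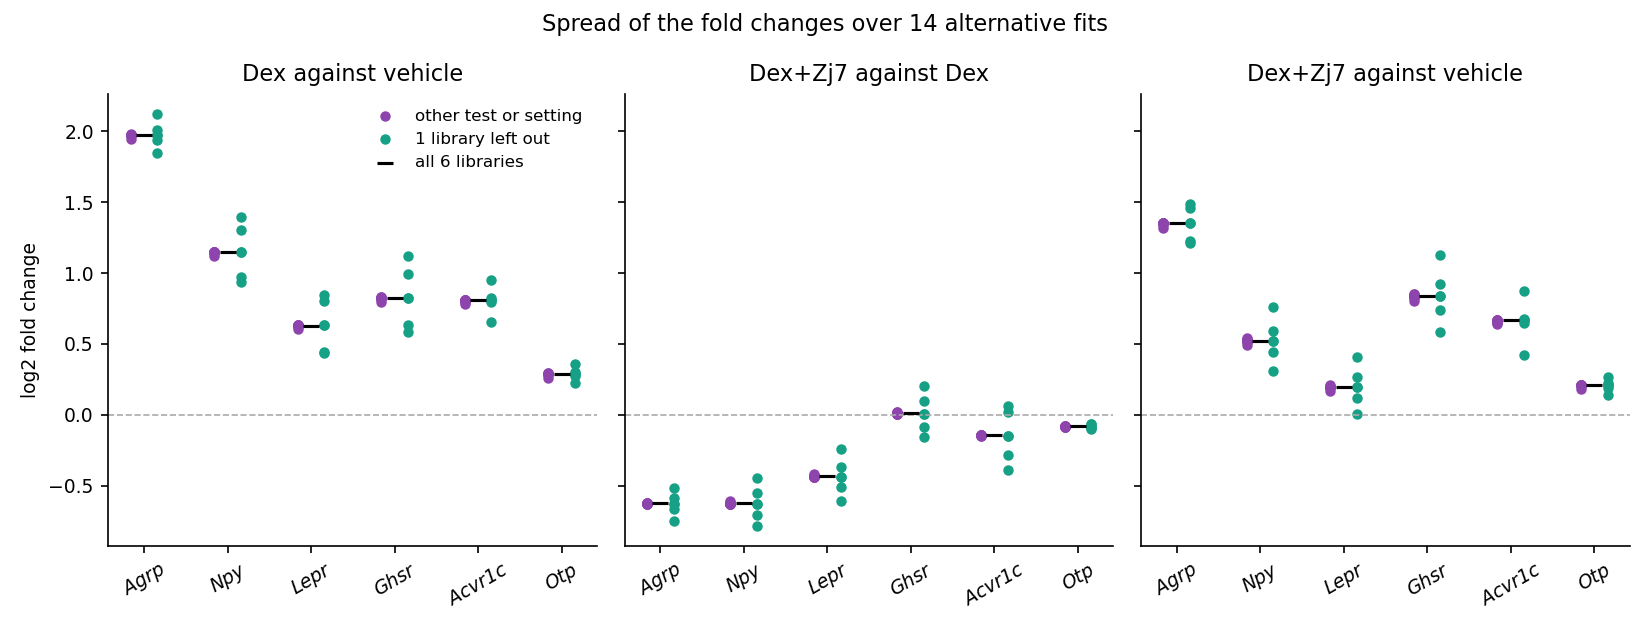
Log2 fold changes of the 6 genes called with Dex under 14 alternative fits, 8 with another test or setting and 6 with a library left out, beside the value with all 6 libraries (black line). The library left out moves the values more than the test does, and *Agrp* stays between 1.85 and 2.12 for Dex against vehicle and between −0.75 and −0.51 for Dex+Zj7 against Dex.

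Genes that act with the 10 were read from 7 lists of 6 to 10 genes each, where the median over all genes with Dex was 0.00 and 5.03% of all genes were called higher and 6.45% lower, so that 1 gene of 10 is near the share of all genes. Leptin receptor signalling had 1 of 10 genes higher and 1 lower with Dex, with a median of 0.02. *Ptpn11*, which encodes the phosphatase SHP2 that the leptin receptor recruits, was at 229 and 222 CPM with vehicle, 335 and 355 CPM with Dex and 339 and 306 CPM with Dex+Zj7. It rose by 0.61 with Dex (adjusted p = 0.00212 by quasi-likelihood in edgeR) and was at 0.52 relative to vehicle with Dex+Zj7 (adjusted p = 0.0058). *Ptpn2*, the gene of a phosphatase that dampens JAK-STAT signalling, was at 31.2 and 33.0 CPM with vehicle, 23.9 and 22.9 CPM with Dex and 24.9 and 21.7 CPM with Dex+Zj7, a log2 fold change of −0.46 for each treatment (adjusted p = 0.014 and 0.0191). Between Dex+Zj7 and Dex, *Ptpn11* was at −0.10. With Vehicle replicate 2 left out, *Ptpn11* was no longer called with Dex+Zj7 (adjusted p = 0.0598). Also lost were the calls of *Ptpn2* without either vehicle library and, for Dex+Zj7, also without Dex+Zj7 replicate 2 (adjusted p up to 0.129).
Genes of peptide processing and secretory granules had 3 of 10 higher with Dex and 0 lower, with a median of 0.17. *Pcsk2*, a convertase that cuts peptide precursors, was at 282 and 271 CPM with vehicle, 372 and 377 CPM with Dex and 392 and 388 CPM with Dex+Zj7, a rise of 0.44 with Dex (adjusted p = 0.00361) and of 0.50 with Dex+Zj7 (adjusted p = 0.00312). *Scg2*, a secretogranin gene, rose by 0.30 (adjusted p = 0.0249) and *Scg5*, whose protein assists PCSK2, by 0.23 (adjusted p = 0.0471) with Dex. The call of *Pcsk2* with Dex did not hold without Vehicle replicate 2 (adjusted p = 0.0526), and those of *Scg2* and *Scg5* did not in 5 of 6 fits with a library left out, all but that without Dex replicate 2 (adjusted p up to 0.225 and 0.33). These genes are used by peptidergic neurons of every kind.
Of 10 genes for transmission and hormone sensing (median −0.02), 1 rose and 1 fell. *Serpina3n* was on this list, though it encodes a serine protease inhibitor. It rose by 1.12 with Dex (adjusted p = 0.00395) and by 1.14 with Dex+Zj7 relative to vehicle (adjusted p = 0.00497). Which cells this rise came from cannot be told in bulk tissue. *Gpr17*, an orphan receptor gene of AgRP neurons and of oligodendrocyte precursors, fell by 0.65 with Dex (adjusted p = 0.0113), beside the lower oligodendrocyte genes, and was not called without Vehicle replicate 2 (adjusted p = 0.0806). Of 9 measured ligands, partners and effectors of ALK7 (median −0.06), *Inhbb*, an activin subunit gene, fell by 0.63 (adjusted p = 0.0274), from 6.09 and 5.72 CPM with vehicle to 3.89 and 3.77 CPM with Dex, while *Acvr1c* rose; the *Inhbb* call was lost without any one vehicle or Dex library (adjusted p up to 0.135). Of 6 natriuretic peptide and receptor genes (median 0.04), *Npr1*, the gene of a receptor for atrial natriuretic peptide, fell by 0.67 (adjusted p = 0.0419), from 3.82 and 4.01 CPM to 2.55 and 2.39 CPM, a call lost with any one of the 6 libraries left out (adjusted p up to 0.212).
None of 8 genes for factors that act on *Agrp* or *Npy* transcription passed edgeR's quasi-likelihood test in any comparison, nor the exact test, limma-voom or DESeq2, with 1 at an unadjusted p under 0.05 with Dex and a median of 0.02. Those with the smallest p were *Creb1*, a cAMP-responsive factor gene, at −0.18 with Dex (adjusted p = 0.163), and *Klf4* at −0.41 (adjusted p = 0.184). *Nr3c1*, the GR gene, was at 103 and 93.4 CPM with vehicle, 104.5 and 96.1 CPM with Dex and 93.7 and 94.2 CPM with Dex+Zj7. None of 10 receptors and modulators of AgRP and NPY action passed any of these tests either (2 at an unadjusted p under 0.05 with Dex, median −0.05), with *Mrap2*, a melanocortin receptor accessory gene, at −0.20 (adjusted p = 0.0857) and *Npy6r* at −1.44 from under 1 CPM (adjusted p = 0.161). Between Dex+Zj7 and Dex 0 of the 61 genes on the 7 lists were called by any of the 4 tests, and 6 had an unadjusted p under 0.05.

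Genes whose levels followed *Agrp* or *Npy* over the 6 libraries were ranked by Pearson's r of log2 CPM among 13732 genes with a mean of at least 1 CPM, as a description, since the libraries fall into 3 treatment groups and share their sequencing. The 5 most like *Agrp* were *Vasn* (r = 0.9967), *Rpl14* (0.9964), *Adamts3* (0.9935), *Rps27a* (0.9935) and *Ism1* (0.9922). Their log2 fold changes with Dex ran from 0.28 for *Rps27a* and *Rpl14* to 0.98 for *Ism1*, against 1.97 for *Agrp*. Among the 5 most like *Npy* were *Zfp940* (0.9925), *Optn* (0.9918), *Otulinl* (0.9893) and *Gtf2h5* (0.989), with changes of 0.15 to 0.39 against 1.15 for *Npy*. The likeness is thus of shape and not of size.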

How the data were processed

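Poly(A) RNA was sequenced from 6 ARC libraries, grouped by the sample labels. The authors removed low-quality reads, artifacts and PCR duplicates, which can lower the counts of abundant genes, mapped reads to mm10 with Bowtie2 and HISAT2, assembled transcripts with StringTie, and left out genes with a count of 0 in any library. The deposited read counts are whole numbers, not normalized. The authors also deposited FPKM values, used here to compare levels between genes, and TPM values, which were only tabulated. Columns of normalized values, group means and the authors' fold changes and p-values were not used. The aim of every count step was a level or a difference for each of the 10 genes, from a fit over the whole table. Counts were tested in R 4.3.3 with edgeR 4.0.16 (TMM, glmQLFit and glmQLFTest, 6 libraries in 1 fit of 3 groups, no filter), with p-values adjusted by Benjamini-Hochberg over 21461 genes and calls at an adjusted p under 0.05. SE is the size of a log2 fold change over the root of F, and intervals use 8.57 degrees of freedom. The fit was also run on simulated counts with 200 genes changed, to check that its fold changes followed those put in. The simulated libraries shared no replicate difference, no rate of false calls is given here, and no result above rests on that run. At 50704789 to 61122938 counts per library and 2 libraries a group, precision is limited by the few libraries and, most of all for *Corin*, by counting. The counting error (1 over the root of the count) was 7.74% to 12.1% for *Corin* and 1.66% to 2.75% for *Npy*.
Alternatives were RLE and total-count scaling, DESeq2 1.42.0, edgeR's exact test, limma-voom (limma 3.58.1), only the groups compared, a replicate block, a mean of at least 1 CPM, an unadjusted p with a linear fold of 1.5, and each library left out (for list genes, added after the data were seen). The 10 genes, the lists and the tests were chosen with earlier results of these data known. Named are all 10 genes, list genes called in any comparison (at most 6 a list) or else the 2 with the smallest p, and the 5 genes most like *Agrp* and *Npy* without predicted names. Of these, 1 gene is not reported here. *Nr3c1*, *Pomc*, *Slc6a3*, *Cartpt*, *Isl1*, *Th*, *Pmch*, *Hcrt* and *Gm38250* were named beyond that rule, after their values were seen. Positions come from RefSeq GRCm38.p6 (21404 of 21461 genes matched by ID, and all 10).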

Additional observations from a re-analysis of the deposited data

How the results depend on the processing

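The calls of *Agrp* and *Npy* with Dex and of *Agrp* with Dex+Zj7 against vehicle held in all 14 alternatives; the cause of the shifts below was not tested. With a library left out, 2 to 5 of the 10 genes were called higher with Dex and 0 lower, and 1 to 4 higher and 0 to 1 lower with Dex+Zj7 against vehicle. Over all genes such fits called 183 to 1137 higher and 355 to 1260 lower with Dex (1080 and 1384 in full), 118 to 1137 and 156 to 1195 for Dex+Zj7 against vehicle (730 and 853 in full), and 0 to 1 and 0 to 2 between Dex+Zj7 and Dex. For Dex against vehicle, edgeR's exact test called 1655 genes higher, and 1 of the 10 genes (*Asb4*) was called lower with total counts, DESeq2, the exact test, the block and genes of at least 1 CPM. Between Dex+Zj7 and Dex, DESeq2 called 48 higher and 18 lower, the exact test 62 and 34, the fit of 2 groups 0 higher, and the unadjusted p with a fold 309 and 285. Of the 10 genes these called 1 (DESeq2), 2 (exact test) and 2 (unadjusted p with a fold) lower. For Dex+Zj7 against vehicle the exact test called 1373 higher and 1634 lower, the fit of 2 groups 1132 higher, and the unadjusted p with a fold 1298 lower and 0 of the 10 lower.
The main fit did not pair the libraries by replicate number. The correlation of deviations between same-numbered libraries was 0.322 (vehicle and Dex), 0.023 (vehicle and Dex+Zj7) and −0.0115 (Dex and Dex+Zj7) over 15531 genes. Vehicle and Dex thus shared part of the difference between their replicates, and its source was not tested. With the replicate block, 1743 genes were higher with Dex and 1302 higher and 1310 lower with Dex+Zj7 against vehicle, 0 were higher between Dex+Zj7 and Dex, and of the 10 genes 1 was lower with Dex.
Signs turned only for values that were not called, given here with the range over the libraries left out. *Bsx* was at −0.06 with Dex and with Dex+Zj7 against vehicle without Vehicle replicate 2 (−0.0591 and −0.0611) and at 0.2248 and 0.2227 without Vehicle replicate 1. Between Dex+Zj7 and Dex, *Bsx* was at −1e-04 with genes of at least 1 CPM, −0.002 without either vehicle library, −0.0508 without Dex replicate 1, −0.0201 without Dex+Zj7 replicate 2 and 0.0681 at most. *Ghsr* was at −0.1577 without Dex replicate 2, −0.0849 without Dex+Zj7 replicate 1 and 0.2043 at most, *Acvr1c* at 0.0171 without Dex replicate 1, 0.0635 without Dex+Zj7 replicate 2 and −0.3858 at least, and *Npy2r* at 0.0247 without Dex+Zj7 replicate 2 and −0.1816 at least. Where a library is left out, the lone library of its group is assumed to vary like the others.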
